A study of Mus musculus with 69 samples.

Results

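Acyl-CoA synthetases join a fatty acid or acetate to coenzyme A, the step that every fatty acid entering a cell must pass before it can be oxidised, stored or built into membranes. The genes described here were all 8 members of 2 families, Acsl1, Acsl3, Acsl4, Acsl5 and Acsl6, which act on long-chain fatty acids, and Acss1, Acss2 and Acss3, which act on acetate and other short-chain acids. They were taken from the count tables of WT VSMC, KO VSMC and EC by matching the Ensembl identifiers of their rows to these symbols, and all 8 were found among 56953 rows. The rule that chose them is family membership and uses no measured value, although it was set with earlier results of these data known. None of the 8 passed the test for any stressor in any of the 3 kinds of cells, where 0% to 7.34% of all genes were called, so that 0 of 8 is close to that background. The 95% intervals of Acsl1, Acsl3, Acsl4, Acsl5 and Acss2 against Control reached from -0.61 to 0.69 on the log2 scale, so that smaller changes are not excluded. Those of the scarce Acss1, Acsl6 and Acss3 reached further and could not show the absence of a change. Acss1 in WT VSMC with AII + NA had an interval above 0 but did not pass after adjustment over all genes. Other genes of fatty acid use changed.

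The Acsl enzymes sit on different membranes and channel their products to different ends. ACSL1 is the main form of heart, fat and liver and is tied to oxidation and to triglyceride synthesis, ACSL3 is linked to lipid droplets and the endoplasmic reticulum, ACSL4 prefers arachidonic acid and other polyunsaturated fatty acids and supplies the phospholipids that are peroxidised in ferroptosis, ACSL5 resides on mitochondria and endoplasmic reticulum, and ACSL6 is mostly known from brain. ACSS2 makes acetyl-CoA in cytosol and nucleus, ACSS1 and ACSS3 work in mitochondria, and ACSS3 prefers propionate. Acsl1 is a textbook target of the PPAR receptors, nuclear receptors that fatty acids activate, and Acss2 is a textbook target of the SREBP factors, which govern sterol and fatty acid synthesis.

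In the mouse assembly GRCm39, Acsl1 lies on chromosome 8 from 46924063 to 46990145, Acsl3 on chromosome 1 from 78635537 to 78685461, Acsl4 on chromosome X from 141100840 to 141173789, Acsl5 on chromosome 19 from 55240267 to 55286153 and Acsl6 on chromosome 11 from 54194352 to 54255587. Acss1 is on chromosome 2 from 150460020 to 150510420, Acss2 on chromosome 2 from 155355679 to 155428016 and Acss3 on chromosome 10 from 106769375 to 106959635. Counts were summed over all annotated exons of a gene, untranslated regions included. Of the exonic bases of Acsl5, 37.3% overlap exons of Zdhhc6 on the opposite strand, and of those of Acss3, 27.8% overlap Ppfia2. The overlap with other genes was 19.3% for Acsl3, 11.6% for Acss2 and below 10 percent for the other members. The strand setting of the counting is not given in the sources used here, so reads of overlapping exons cannot be assigned to one of the genes with certainty.

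The study exposed primary vascular cells of male C57BL/6 mice for 24 h to stressors that accompany obesity and type 2 diabetes. WT VSMC were aortic smooth muscle cells, KO VSMC were the same cells from mice in which Cre under the smooth muscle promoter SM22 had deleted the floxed Egfr gene, and EC were heart cells selected on beads as CD45- and CD31+ and labelled WT in cell genotype. HG + FFA stood for 20 mM glucose with 100 µM free fatty acids, given in the study's methods as oleate and palmitate at 100 µM each, AII + NA for angiotensin II (30 nM) combined with a catecholamine (300 nM) that the labels call epinephrine and the methods norepinephrine, and ALL for both. The libraries of a set came from cells of one animal, treated at the same time. Each of the 4 groups of WT VSMC held 4 libraries (sets 1 to 4). KO VSMC had 4 libraries in Control, HG + FFA and AII + NA and 3 in ALL (sets 5 to 8), and EC had 9 in Control and AII + NA and 10 in HG + FFA and ALL (sets 9 to 18). Animals gave more than 1 set in 5 cases. EC sets 9 and 10 came from the animals of WT VSMC sets 1 and 2, EC sets 15 and 16 from the animals of KO VSMC sets 7 and 6, and EC sets 17 and 18 from 1 animal, so that the 10 EC sets stood for 9 animals. The age of the animals was not given.

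Libraries held 17166133 to 43240489 counts. Egfr was at 246 to 430 FPM (fragments counted for the gene, scaled to a common library size) as the mean of a set in WT VSMC and at 0.96 to 1.84 FPM in KO VSMC sets 6, 7 and 8, but KO VSMC set 5 retained 36.5 FPM. In EC the sum of 10 endothelial marker genes, among them Pecam1 and Cdh5, was 562 to 4760 FPM in 7 sets but only 63.9, 147 and 65.8 FPM in sets 9, 11 and 13, against 3.46 to 63.9 FPM in VSMC. The same 3 EC sets held 3620, 8890 and 9990 FPM of 5 fibroblast marker genes, against 609 to 4330 FPM in the other EC sets. These 3 sets therefore go against their label. The log2FC of members and the counts of PPAR and SREBP target genes are given with and without them in EC, and with and without set 5 in KO VSMC, while other values are with all sets. The number of smooth muscle markers above 3 FPM did not separate the cells. Of 8, 6 were above 3 FPM on average in WT VSMC, KO VSMC and EC alike. The markers summed to 749 to 1270 FPM in the sets of WT VSMC and 897 to 3240 FPM in KO VSMC. In EC they summed to 840, 3250 and 2960 FPM in sets 9, 11 and 13 and 214 to 723 FPM in the other sets. Most of each group's mean sum was Acta2, at 879, 1420 and 1000 FPM in WT VSMC, KO VSMC and EC. In the same order Tagln averaged 3.87, 6.51 and 6.22 FPM, Myh11 7.4, 52.3 and 3.59 FPM and Cnn1 22.9, 99.5 and 11.3 FPM. Fibroblast markers summed to 4360 to 9380 FPM in the sets of WT VSMC. In KO VSMC they summed to 5920 FPM in set 5 and to 1730, 2180 and 1530 FPM in sets 6, 7 and 8. Cultured smooth muscle also expresses Col1a1 and Dcn. The other 3 of these genes, Pdgfra, Dpt and Lum, averaged 581, 307 and 251 FPM in WT VSMC and 188, 81.8 and 34.7 FPM in KO VSMC. Adipocyte markers summed to at most 0.387 FPM in any set and the defining cardiomyocyte gene Myh6 averaged at most 0.0127 FPM in any kind of cells (6 cardiomyocyte genes summed to 4.35 to 277 FPM in the sets), while leukocyte markers summed to 6.06 to 196 FPM, mostly from Lyz2. In bulk RNA, fewer cells of a type and less RNA per cell cannot be told apart.

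Acsl5 was the leading member in every kind of cells. To compare genes, FPM was divided by the exonic length of the gene in kilobases (FPKM). Acsl5 stood at 9.7 FPKM ± 1.43 (SD, n = 4) in WT VSMC Control, at 10.0 FPKM ± 2.74 (SD, n = 4) in KO VSMC Control and at 15 FPKM ± 3.56 (SD, n = 9) in EC Control. It was above each of the other 7 members in 16 of 16 WT VSMC, 15 of 15 KO VSMC and 38 of 38 EC libraries, and made up 58.4% ± 3.48 (SD, n = 4), 58.3% ± 9.45 (SD, n = 4) and 58.0% ± 10.1 (SD, n = 9) of the summed FPKM of the Acsl family in the 3 Control groups. Acsl3 came next, at 3.02, 2.6 and 5.02 FPKM in WT VSMC, KO VSMC and EC, followed in WT VSMC and EC by Acsl4 at 2.7 and 4.46 FPKM. Acsl3 exceeded Acsl4 in 4 of 4 WT VSMC but in 6 of 9 EC Control libraries. In KO VSMC Acsl3 exceeded Acsl1 in 2 of 4 and Acsl1 exceeded Acsl4 in 2 of 4 Control libraries. Acss2 was the main acetate enzyme at 0.694, 0.534 and 0.697 FPKM, or 76.3%, 74.6% and 85.0% of the Acss family. Acss1, Acss3 and Acsl6 stayed below 0.2 FPKM in each Control group, and their order was not the same in all libraries.

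**Figure D1:**
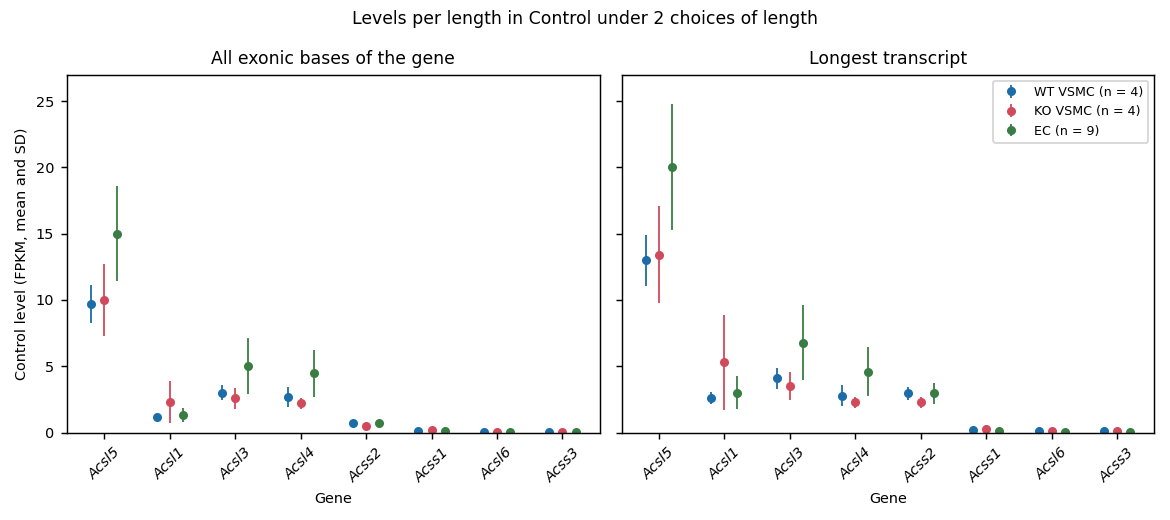
Control levels of the 8 acyl-CoA synthetases per length (FPKM, mean and SD over libraries) in WT VSMC, KO VSMC and EC, with the length taken as all exonic bases of the gene (left) or as its longest transcript (right). Acsl5 leads under both choices, while Acsl1 and Acss2 rise beside Acsl3 and Acsl4 when the longest transcript is used.

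The order below Acsl5 rested on which length was used. The annotation gives Acsl1 and Acss2 16262 and 19789 exonic bases but longest transcripts of 7183 and 4659 bases. With the longest transcript, Acss2 in WT VSMC Control was at 2.95 FPKM, between Acsl3 at 4.08 FPKM and Acsl4 at 2.79 FPKM, and Acsl1 in KO VSMC Control ranked second by its mean of 5.31 FPKM, above Acsl3 in 2 of 4 libraries. The values below are therefore given in FPM, which compares libraries for 1 gene and not genes with each other.

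Over the sets the members varied more than over the treatments. For the 5 members above 3 FPM (Acsl1, Acsl3, Acsl4, Acsl5 and Acss2) in the 3 kinds of cells, the range between the means of sets was 0.11 to 1.9 on the log2 scale and the range between the means of treatments, taken within sets, was 0.07 to 0.35. The range between sets was the larger in 13 of these 15 pairs of gene and cells. In EC the ranges are unlike, with 10 set means of 3 or 4 libraries each and 4 treatment means of 9 or 10. A range over more and noisier means tends to be larger. The exceptions were Acsl4 in KO VSMC, with 0.11 between sets and 0.33 between treatments, and Acss2 in WT VSMC, with 0.11 and 0.32.

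**Figure D2:**
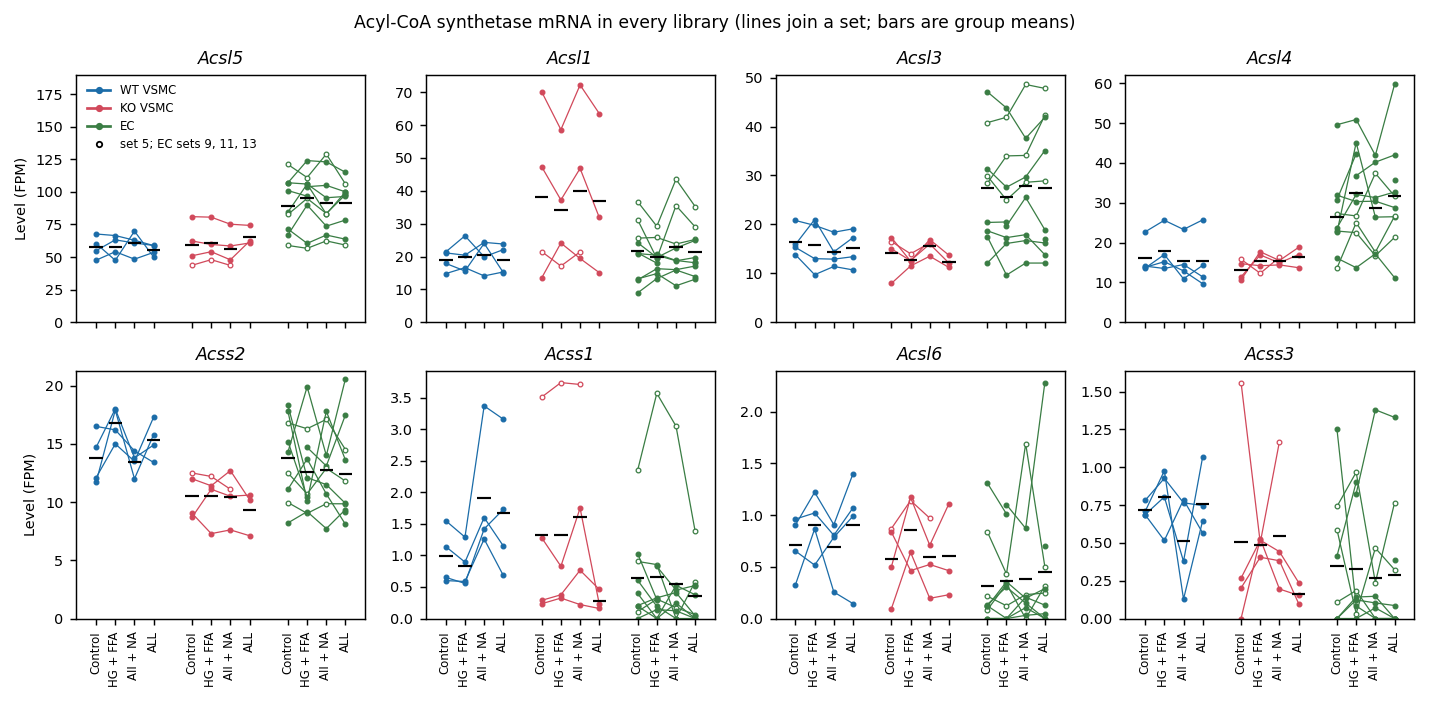
Level (FPM) of each acyl-CoA synthetase in every library, by cells and treatment; lines join the libraries of a set, bars are group means, and open circles mark KO VSMC set 5 and EC sets 9, 11 and 13. Lines of different sets run apart and mostly flat, with Acsl1 in KO VSMC sets 6 and 7 far above the others.

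Among the 5 members above 3 FPM, Acsl5 had the smallest span of log2FC against Control. Its Control level in WT VSMC sets 1 to 4 was 67.7, 60.4, 47.6 and 54.9 FPM. It was 66.5, 47.5, 54.1 and 63.2 FPM under HG + FFA, 62.9, 69.9, 48.4 and 60.8 FPM under AII + NA and 58.8, 50.0, 53.6 and 58.9 FPM under ALL, so that the 4 groups overlapped. In KO VSMC its Control level was 43.7, 81.0, 51.0 and 62.3 FPM in sets 5 to 8. In EC Control it ranged from 58.9 to 121 FPM with a median of 84.5 FPM. Over the 9 comparisons with Control its log2FC lay between -0.07 and 0.08, with 95% intervals within -0.27 and 0.29. By the range between treatment means it was not the lowest in VSMC. That range was 0.11 for Acsl1 against 0.12 for Acsl5 in WT VSMC, and 0.11 for Acss2 against 0.13 for Acsl5 in KO VSMC.

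Acsl1, the PPAR target of the family, did not pass the test with HG + FFA. In WT VSMC sets 1 to 4 it was at 21.1, 17.9, 21.4 and 14.8 FPM in Control and at 20.4, 15.6, 26.3 and 16.6 FPM under HG + FFA, higher in 2 of 4 sets (log2FC 0.07, SE 0.13, 95% interval -0.21 to 0.34; edgeR FDR 0.903, DESeq2 FDR 0.924). In KO VSMC sets 5 to 8 it was at 21.5, 70.1, 47.3 and 13.5 FPM in Control and at 17.1, 58.6, 37.2 and 24.1 FPM under HG + FFA, higher in set 8 alone. Sets 6 and 7 were high and sets 5 and 8 low under each treatment. In EC the level was 8.92 to 36.7 FPM in Control (median 21.1 FPM) and its log2FC with HG + FFA was -0.03 (95% interval -0.23 to 0.17). Over the 9 comparisons with Control the log2FC of Acsl1 was -0.26 to 0.13 and each 95% interval lay within -0.61 and 0.43, inside the 0.64 that the study required of a differentially expressed gene (DEG).

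Acss2, the SREBP target, gave one of the larger values in WT VSMC with HG + FFA. It was at 11.7, 12.1, 14.7 and 16.5 FPM in Control and at 17.9, 15, 18 and 16.2 FPM with HG + FFA, higher in 3 of 4 sets, with overlapping groups (log2FC 0.30, SE 0.12, 95% interval 0.05 to 0.54; edgeR unadjusted p = 0.022, FDR 0.331; DESeq2 FDR 0.28). Under ALL it was at 15.8, 17.3, 14.9 and 13.4 FPM (log2FC 0.17, 95% interval -0.08 to 0.42). In KO VSMC its log2FC was -0.02 with HG + FFA and -0.12 with ALL, and in EC -0.16 and -0.20. None of these passed the test.

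The promoters of Acsl1 and Acss2 are shown because these members are the known targets of the factors whose other targets moved with HG + FFA or ALL. The 250 bases before the annotated starts are printed 5′ to 3′ on the plus strand from RefSeq in assembly GRCm38.p6, with CCAAT, the box bound by NF-Y that often accompanies SREBP sites, or its reverse complement ATTGG in capitals. The Acss2 window is chr2:155517793-155518042, and the Acsl1 windows are chr8:46470787-46471036 and chr8:46490716-46490965.
Acss2: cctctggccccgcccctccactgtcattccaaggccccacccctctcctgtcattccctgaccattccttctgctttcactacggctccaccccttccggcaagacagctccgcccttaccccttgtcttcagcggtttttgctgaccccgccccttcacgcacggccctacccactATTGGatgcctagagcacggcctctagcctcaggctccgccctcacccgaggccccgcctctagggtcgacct
Acsl1 upstream start: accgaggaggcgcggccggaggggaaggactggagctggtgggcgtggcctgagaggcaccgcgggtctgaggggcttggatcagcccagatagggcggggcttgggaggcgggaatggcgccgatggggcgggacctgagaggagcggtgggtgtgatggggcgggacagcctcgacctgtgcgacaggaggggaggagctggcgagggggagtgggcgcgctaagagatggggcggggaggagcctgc
Acsl1 downstream start: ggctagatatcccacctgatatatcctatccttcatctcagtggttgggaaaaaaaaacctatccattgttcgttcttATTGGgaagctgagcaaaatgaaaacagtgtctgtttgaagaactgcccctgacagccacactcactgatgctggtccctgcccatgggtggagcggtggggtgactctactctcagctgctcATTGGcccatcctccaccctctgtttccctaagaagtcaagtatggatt

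The table used held 10 windows for 7 of the members and was searched on both strands over these 250 bases. CCAAT was present in 33.8% of all 32851 windows and in 6 of the 10 member windows, among them Acss2, 69 to 73 bases before its start, and the downstream start of Acsl1, at 45 to 49 and 168 to 172 bases. The hexamer AGGTCA, to which nuclear receptors bind, was present in 14% of all windows and in 1 member window, of Acsl6. The full PPAR element DR1, which is AGGTCA repeated in the same direction after 1 base and so contains AGGTCA, was in 0.0335% of all windows. The E-box CACGTG was in 6.02%. Neither was in a member window. No match says only that these letters were not in this window.

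Acsl3 in WT VSMC was at 20.8, 15.3, 15.9 and 13.8 FPM in Control and at 18.4, 12.9, 14.4 and 11.4 FPM with AII + NA, lower in 4 of 4 sets by a log2FC of -0.21 (SE 0.11, 95% interval -0.45 to 0.03; edgeR unadjusted p = 0.0834, FDR 0.602). The groups overlapped, and KO VSMC gave a log2FC of 0.17 and EC of 0.00 with AII + NA. Acsl4 in EC with HG + FFA was higher in 5 of 9 sets that had both libraries, with a log2FC of 0.25 (SE 0.12, 95% interval 0.01 to 0.50; edgeR unadjusted p = 0.0405, FDR 0.268), and of 0.26 without EC sets 9, 11 and 13. In KO VSMC with ALL it was at 13.7, 17 and 18.8 FPM in sets 6 to 8 against 14.7, 11.4 and 10.7 FPM in their Control libraries, higher in 2 of 3 sets, with a log2FC of 0.33 and a 95% interval of -0.04 to 0.69. This was the only 1 of the 45 intervals of the 5 members above 3 FPM in the 9 comparisons with Control that reached beyond 0.64 in either direction.

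**Figure D3:**
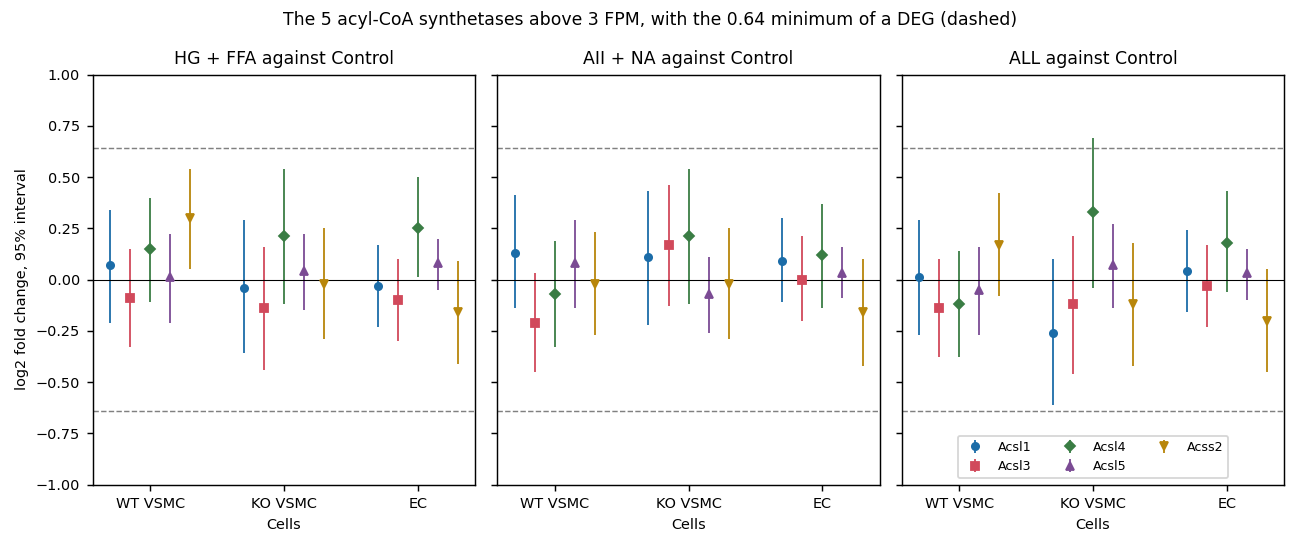
log2 fold change with its 95% interval (edgeR) for Acsl1, Acsl3, Acsl4, Acsl5 and Acss2 in the 9 comparisons with Control; dashed lines mark 0.64 in each direction. Apart from Acsl4 in KO VSMC under ALL, whose interval ends at 0.69, each interval lies between the dashed lines.

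A gene was called changed when its FDR was below 0.05 in both edgeR's quasi-likelihood test and DESeq2, adjusted over all genes tested. By this rule 0 of 8 members changed in each of the 9 comparisons with Control, and the FDR of either tool alone called none of them. Among all genes the same rule called 0.521%, 0.0532% and 7.34% in WT VSMC under HG + FFA, AII + NA and ALL, 0.433%, 0% and 0.399% in KO VSMC, and 3.52%, 0% and 3.15% in EC. With so few genes called in most comparisons, the absence of calls among 8 genes stands close to the background, and the intervals above carry the measurement. At an unadjusted edgeR p below 0.05, 4 of 72 tests of members against Control passed (5.56%), and 12.7% of the tests over all genes did. The 4 were Acss2 in WT VSMC with HG + FFA, Acss1 in WT VSMC with AII + NA and with ALL, and Acsl4 in EC with HG + FFA.

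The remaining comparisons asked what one kind of stressor added to the other, whether both together departed from the sum of the single effects, and whether a stressor effect differed between WT VSMC and KO VSMC. None of the 8 members changed in these either, by the rule or by either tool alone, and at an unadjusted edgeR p below 0.05 there were 2 in WT VSMC for ALL against HG + FFA, 2 in KO VSMC for ALL against AII + NA, 1 for the ALL effect between genotypes and 0 in the others. ALL against HG + FFA called 0.0414% of all genes in WT VSMC and 0% in KO VSMC and EC, and ALL against AII + NA called 1.35%, 0.399% and 3.19%. Departure from additivity called 0% in all 3 kinds of cells. The difference of effects between genotypes called 0% for HG + FFA and for AII + NA, and 0.0109% for ALL. Among members above 3 FPM, Acsl4 in WT VSMC was lower under ALL than under HG + FFA (log2FC -0.27, unadjusted p below 0.05 in edgeR) and Acsl1 in KO VSMC was lower under ALL than under AII + NA (log2FC -0.36), neither with an FDR below 0.05 in the fit over all groups. With only the 2 groups in the fit, edgeR gave this Acsl1 value an FDR of 0.0388, without the call by both tools that the rule requires.

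Acss1, Acsl6 and Acss3 were scarce, and their counts limit what can be said. Acss1 was covered by 14 to 89 counts a library in WT VSMC, 4 to 112 in KO VSMC and 0 to 108 in EC. Acsl6 had 0 counts in 8 of 38 EC libraries and Acss3 in 14 of 38. Intervals of these 3 genes in the comparisons with Control, taken over all 3 kinds of cells, reached from -2.9 to 1.85 on the log2 scale. At this depth the absence of a change could not be read for them, and no change passed the test. The interval of Acss1 in WT VSMC with AII + NA, given below, nevertheless lay above 0.

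Acss1, the mitochondrial acetate enzyme, gave the smallest p-values of the members. In WT VSMC sets 1 to 4 it was at 0.601, 0.652, 1.14 and 1.55 FPM in Control, at 1.26, 1.42, 1.60 and 3.37 FPM with AII + NA and at 0.682, 1.73, 1.15 and 3.16 FPM with ALL. It was higher than in Control in 4 of 4 sets under both, although the groups overlapped. The log2FC was 0.93 with AII + NA (SE 0.24, 95% interval 0.41 to 1.45; edgeR unadjusted p = 0.00161, FDR 0.194; DESeq2 FDR 0.0525) and 0.70 with ALL (edgeR FDR 0.105). With HG + FFA it was at 0.587, 0.556, 0.894 and 1.29 FPM, below Control in 4 of 4 sets. For ALL against HG + FFA DESeq2 gave Acss1 a log2FC of 0.94 (FDR 0.0541). The edgeR FDR there was 0.155, and 0.0217 with no count filter. KO VSMC set 5, the set that retained Egfr, stood apart at 3.51, 3.74 and 3.71 FPM in Control, HG + FFA and AII + NA, while sets 6 to 8 were between 0.159 and 1.75 FPM. The ALL effect on Acss1 was larger in WT VSMC than in KO VSMC by 1.55 on the log2 scale (95% interval 0.44 to 2.66; edgeR unadjusted p = 0.00815, FDR 0.469; DESeq2 FDR 0.222). It was 1.48 without set 5 (FDR 0.296) and 0.71 without set 8 (FDR 0.886).

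Other genes that handle fatty acids and acyl-CoA were set beside the 5 members above 3 FPM, whose log2FC against Control was -0.26 to 0.33. The lists were chosen with earlier results of these data known. They hold textbook genes of each pathway without the members, and some genes stand in more than 1 list. Of 20 PPAR target genes tested, 3 rose in WT VSMC with HG + FFA, 9 in KO VSMC and 13 in EC, and with ALL 8, 9 and 13, while none fell. Among all genes 0.314%, 0.331% and 1.63% were higher with HG + FFA and 3.86%, 0.279% and 1.13% with ALL. With AII + NA 0 of the 20 changed in any of the cells. The median log2FC of the list with HG + FFA was 0.23, 0.37 and 0.52 for WT VSMC, KO VSMC and EC, where the median of all genes was -0.01, 0 and 0. For KO VSMC without set 5 the counts were 13 with HG + FFA and 10 with ALL, and for EC without sets 9, 11 and 13 they were 12 and 11. The order of WT VSMC and KO VSMC with HG + FFA rested on the setting. In WT VSMC the count of 3 became 7 by DESeq2 alone or with no count filter and 6 with only the 2 groups in the fit, and in KO VSMC the count of 9 became 0 with only the 2 groups in the fit. With no replicate block the counts were 0 in WT VSMC and KO VSMC and 2 in EC for HG + FFA and for ALL. None of the 20 differed in its HG + FFA or ALL effect between WT VSMC and KO VSMC.

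The PPAR targets named here act at steps before or after the synthetases, except Pdk4, which acts on pyruvate. Angptl4, a secreted inhibitor of lipoprotein lipase, rose by a log2FC of 2.13 in KO VSMC and 3.22 in EC with HG + FFA, where WT VSMC gave 1.32 without passing the test. Pdk4, the kinase that shuts pyruvate dehydrogenase, rose by 1.52, 1.63 and 1.2 in the same order of WT VSMC, KO VSMC and EC. Cpt1a, which moves the acyl-CoA products of the long-chain synthetases onto carnitine for entry into mitochondria, rose in KO VSMC (1.04) and EC (0.80), and its log2FC in WT VSMC was 0.495 (SE 0.135) without passing the test there. Fabp4, a fatty acid carrier, rose in KO VSMC (1.01) and EC (1.51), and Ech1, an enzyme of fatty acid oxidation, rose in WT VSMC (0.68), KO VSMC (0.80) and EC (0.89). Plin2, the coat protein of lipid droplets, rose in KO VSMC (0.54) and EC (0.91). Beside these values the log2FC of Acsl1 with HG + FFA was 0.07, -0.04 and -0.03, and the differences between genes were not tested.

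**Figure D4:**
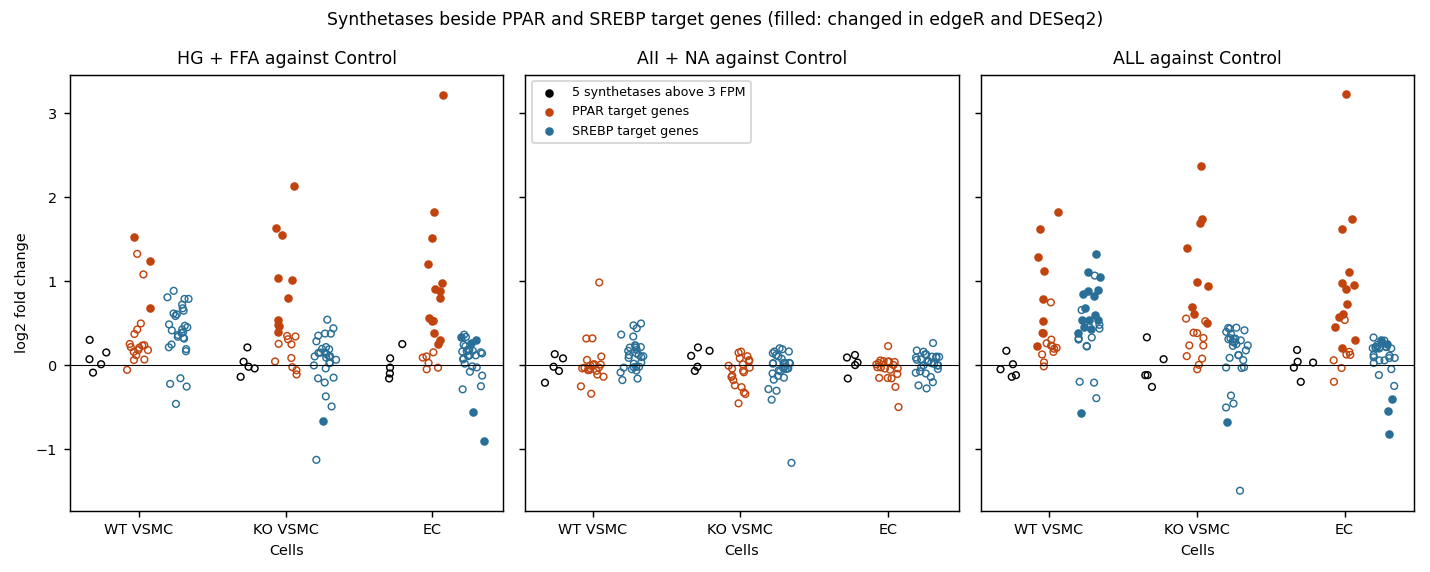
log2 fold change against Control of the 5 synthetases above 3 FPM (black), PPAR target genes (orange) and SREBP target genes (blue) in WT VSMC, KO VSMC and EC; filled points changed in edgeR and DESeq2. The synthetases lie between -0.26 and 0.33 in each panel while PPAR targets reach 3.22 with HG + FFA in EC.

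SREBP target genes moved in another pattern. Of 29 tested in WT VSMC, 15 rose and 1 fell under ALL, with a median log2FC of 0.48, and 0 changed with HG + FFA, where the median was 0.41. The 0 rested on the setting, as DESeq2 alone gave 6 higher and 2 lower, no count filter 5 higher and 1 lower, and a fit of only the 2 groups 3 higher. With no replicate block none changed under ALL. Fdps (1.11), which makes farnesyl diphosphate, rose in WT VSMC under ALL. Acss2 in WT VSMC stood at 0.17 under ALL, beside the list median of 0.48, and at 0.30 with HG + FFA, beside 0.41. The differences between genes were not tested. In KO VSMC 0 rose, but 0 of 29 differed in their ALL effect between WT VSMC and KO VSMC. Scd2, a stearoyl-CoA desaturase that uses the product of the synthetases, fell with HG + FFA (-0.66) and with ALL (-0.68). Without set 5, Acly rose and Scd1 fell as well with HG + FFA. In EC 3 of 28 rose with HG + FFA (Stard4, Sc5d and Acly) and 2 fell (Scd2, Srebf1). Under ALL 2 rose (Me1, Acly) and 3 fell (Scd2, Srebf1, Acaca). Without EC sets 9, 11 and 13 the counts were 1 higher and 2 lower in both. Among all genes, 3.48% were lower in WT VSMC under ALL, 0.103% and 0.12% in KO VSMC with HG + FFA and ALL, and 1.88% and 2.03% in EC.

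Of 16 further acyl-CoA synthetase genes (the Slc27a, Acsm, Acsbg and Acsf families and Aacs), 9 could be tested in VSMC and 7 in EC. Slc27a3, a very-long-chain acyl-CoA synthetase, fell in WT VSMC with HG + FFA (log2FC -0.40, SE 0.08, edgeR FDR 0.0407), where 0.207% of all genes were lower, and with ALL (-0.48), and Slc27a4, the fatty acid transport protein FATP4, rose with ALL (0.29). None of the tested genes changed in KO VSMC or EC against Control. Of 15 tested genes of acyl-CoA hydrolysis, binding and carnitine transfer, 4 rose in WT VSMC with ALL (Dbi, Cpt1a, Acot1, Cpt1c) and 4 in EC with HG + FFA and with ALL (Acot1, Cpt1a, Dbi, Acot13), none of which fell. Dbi is the acyl-CoA binding protein. Acot1 shares much of its sequence with Acot2, so that its counts are uncertain. In KO VSMC only Cpt1a passed, with HG + FFA and with ALL.

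Enzymes that consume acyl-CoA for glycerolipids and sterol esters moved in both directions. Of 21 tested in WT VSMC under ALL, where 7.34% of all genes changed, Agpat3 (0.43) and Lpcat4 rose and Gpam (-0.59) and Lpcat3 (-0.29) fell. In EC Agpat3 (0.25) rose and Gpam (-0.38) fell with HG + FFA, and Gpam (-0.40) fell under ALL. Gpam begins glycerolipid synthesis on the mitochondrial membrane. Agpat3 also rose in KO VSMC with HG + FFA (0.47). Lpcat3 places polyunsaturated acyl-CoA, the product of ACSL4, into phospholipids. Of the 7 tested genes on peroxidation of such phospholipids, Fth1 and Lpcat3 fell in WT VSMC under ALL, and in EC Tfrc rose and Fth1 fell with HG + FFA, and Tfrc rose with ALL. Of the 12 tested genes of acetate and acetyl-CoA, Acly, which makes cytosolic acetyl-CoA from citrate beside ACSS2, rose in WT VSMC under ALL (0.45) and in EC with HG + FFA (0.26) and ALL (0.24), and Sirt3, the mitochondrial deacetylase, fell in EC under ALL.

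Under Control conditions 0 of 8 members were called between KO VSMC and WT VSMC by the rule above, where 0.00622% of all genes were called. The rule called 1 gene higher and 0 lower in KO VSMC, so that it missed the deleted Egfr itself. The absence of a call therefore cannot show that the members did not differ. Neither tool alone called a member, and 1 had an unadjusted edgeR p below 0.05. Acsl1 had the largest value among members above 3 FPM. It was at 21.1, 17.9, 21.4 and 14.8 FPM in WT VSMC and at 21.5, 70.1, 47.3 and 13.5 FPM in KO VSMC, so that sets 6 and 7 lay above each WT VSMC library and set 8 below each (log2FC 1, SE 0.44, 95% interval 0 to 2; edgeR unadjusted p = 0.0494, FDR 0.409; DESeq2 FDR 0.252). Without set 5 the log2FC was 1.2 (edgeR FDR 0.139). The spread of Acsl1 over KO VSMC sets was 3.67-fold between the lowest and the highest set mean, against 1.48-fold in WT VSMC. Beside this spread, Egfr was at 1.25, 0.96 and 1.84 FPM in sets 6, 7 and 8 as the mean of a set. Fibroblast markers summed to 1730, 2180 and 1530 FPM in the same sets, below each set of WT VSMC (4360 to 9380 FPM), and to 5920 FPM in set 5. The part of cell composition in the differences between KO VSMC and WT VSMC was not tested. Acss2 was lower in KO VSMC by a log2FC of -0.39 (95% interval -0.83 to 0.06) and Acsl5 differed by 0.04 (95% interval -0.42 to 0.50).

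Between EC and WT VSMC in Control, only Acsl5 changed. It was at 58.9 to 121 FPM in EC (median 84.5 FPM) and at 47.6 to 67.7 FPM in WT VSMC, with overlapping groups (log2FC 0.64, SE 0.20, 95% interval 0.22 to 1.05; edgeR FDR 0.0484, DESeq2 FDR 0.0194), and it was just below the minimum fold of a DEG. This rule called 12% of all genes, so 1 of 8 is near the background. Leaving out any of the WT VSMC sets, or EC set 12, 14, 15, 16 or 18, ended the call, with edgeR FDR of 0.0508 to 0.155. The fit had no block and took all libraries as independent, although EC sets 17 and 18 came from 1 animal. EC set 9 also shared the animal of WT VSMC set 1. With all sets the call therefore counted 1 EC animal more than once, and it ended when set 18 was left out. Without EC sets 9, 11 and 13 the log2FC of Acsl5 was 0.66 (FDR 0.0173) and Acsl4 was called as well, at 0.89 (FDR 0.0495), against 0.74 (FDR 0.117) with all sets. Cell type, organ and the batch of the labels coincide in this comparison and cannot be told apart.

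Acsl3 in EC moved with the endothelial and the fibroblast markers of the sets. It averaged 28.1 to 44.8 FPM in the 5 sets whose endothelial markers summed to below 1000 FPM (sets 9, 11, 13, 16 and 17) and 12.8 to 21.3 FPM in the 5 sets above (sets 10, 12, 14, 15 and 18), without overlap. Fibroblast markers divided the same sets, at 3310 to 9990 FPM in the former and 609 to 2340 FPM in the latter. The lowest library of the first group was at 25.0 FPM and the highest of the second at 25.5 FPM. The dividing level was chosen after the values were seen and no test was made. In WT VSMC the set means of Acsl3 were 11.4 to 19.5 FPM. The log2FC of Acsl3 between EC and WT VSMC Control, 0.74 with all sets (FDR 0.131), was 0.61 without sets 9, 11 and 13 (FDR 0.213). The set means of Acsl1, Acsl4, Acsl5 and Acss2 overlapped between the same groups of sets.

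Sets 17 and 18, from the same animal, differed in the same way. Their endothelial markers summed to 562 and 3800 FPM, their fibroblast markers to 4330 and 1340 FPM, and Acsl3 averaged 42.6 FPM (37.6 to 47.1 FPM) in set 17 and 15.3 FPM (12.1 to 16.7 FPM) in set 18. Acsl4 averaged 50.5 and 30.4 FPM, Acss2 17.2 and 10.9 FPM, Acsl5 77.3 and 101 FPM, and Acsl1 13 and 13.1 FPM. The 4 libraries of each set did not overlap for Acsl3, Acsl4, Acsl5 and Acss2. The part of cell composition in these differences was not tested.

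**Figure D5:**
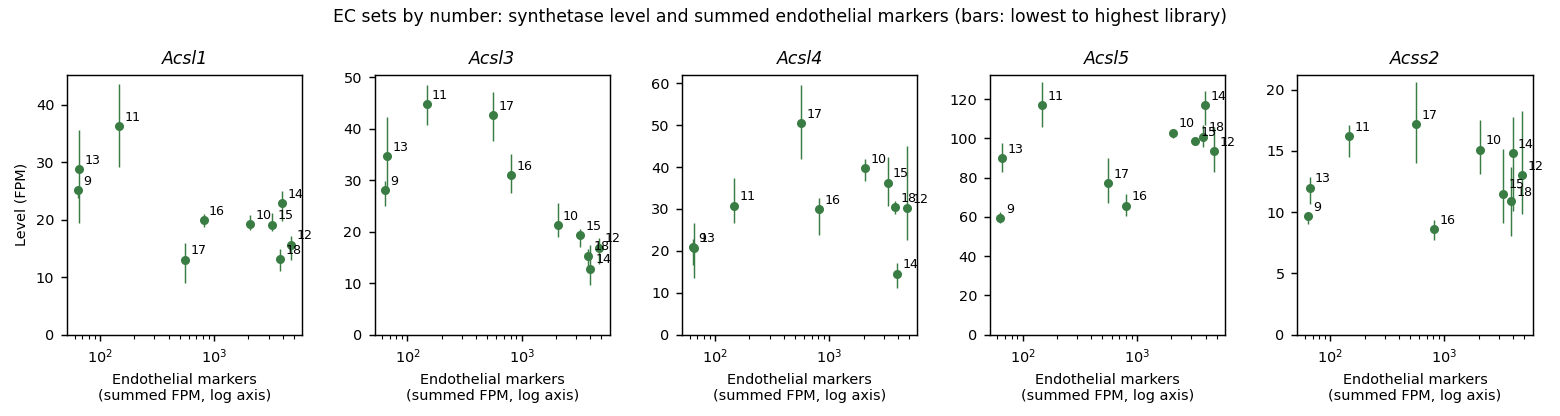
Level (FPM) of 5 acyl-CoA synthetases in each of the 10 EC sets (numbered) against the summed level of 10 endothelial marker genes (log axis); points are means of the 3 or 4 libraries of a set and bars run from its lowest to its highest library. Acsl3 lies at 28.1 to 44.8 FPM in the 5 sets to the left and at 12.8 to 21.3 FPM in the 5 sets to the right.

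Without EC sets 9, 11 and 13 the log2FC of Acsl1, Acsl3, Acsl4, Acsl5 and Acss2 was 0.10, -0.15, 0.26, 0.12 and -0.17 with HG + FFA, 0.08, -0.07, 0.11, 0.01 and -0.26 with AII + NA and 0.11, -0.16, 0.12, 0.04 and -0.24 with ALL, and again 0 of 8 members changed in any EC comparison. In KO VSMC without set 5 the log2FC of Acsl1, Acsl3, Acsl4, Acsl5 and Acss2 was 0.05, -0.11, 0.39, 0 and -0.02 with HG + FFA, 0.14, 0.23, 0.27, -0.09 and 0.03 with AII + NA and -0.21, -0.09, 0.41, 0.05 and -0.11 with ALL, and none passed the test. The naming of genes with the most similar pattern was meant for members changed by a stressor, and as there were none, no such genes are given.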

How the data were processed

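Poly(A) RNA was sequenced with paired ends from 69 libraries. The authors aligned reads to mm39 with HISAT2 2.1.0, counted them per gene with featureCounts, multi-mapping reads included, on Ensembl exons, and deposited raw counts. Of 56953 rows, 56310 matched the GRCm39 annotation used here, and 0.0241% of counts lay on the others.

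Counts were tested with edgeR 4.0.16 (quasi-likelihood, filterByExpr, TMM) and DESeq2 1.42.0 in R 4.3.3, with Benjamini-Hochberg adjustment over all genes tested and the set as a block, per kind of cells. Stressor effects were compared between genotypes in a joint fit of WT VSMC and KO VSMC, and Control levels without a block. A gene changed when its FDR was below 0.05 in both tools, and was a DEG with a log2FC of at least 0.64 in either direction and 3 FPM. FPM used TMM library sizes, and log2 ratios per set a pseudocount of 0.1 FPM. Scripts were tested on simulated data.

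Libraries of a set shared animal and time of treatment per the study's methods. Their deviations from the group means correlated across genes with a mean r of 0.797, 0.78 and 0.82 in WT VSMC, KO VSMC and EC (lowest 0.494). EC sets 17 and 18 share an animal, so the EC sets are not all independent. No 2 libraries of a group agreed within sampling noise. Control of EC set 10, AII + NA of EC set 15 and ALL of KO VSMC set 5 were not analysed here.

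The members and gene lists were chosen with earlier results of these data known. Of each list, at most 3 changed genes a direction with the largest log2FC were named, and some genes that this rule names are not reported here. Cpt1a and Plin2 among PPAR targets, the fourth gene of counts of 4, and the tests quoted without a call were named after their values were seen. Alternatives were either tool alone, other size factors, no count filter, no block, the animal as block, other samples in the fit, each set left out, and the longest transcript as length. Leaving out EC sets 9, 11 and 13 or each EC set, and complete sets only, was chosen after seeing the data.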

Additional observations from a re-analysis of the deposited data

Results flagged for a closer look

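Of 88 groups of 4 to 10 libraries tested for a member, 10 held a library far from all others by Dixon's 95% criterion. Only 1 of them concerned a member above 3 FPM: Acsl4 in WT VSMC Control was at 22.7 FPM in set 1 and next at 14.1 FPM. The criterion flags about 1 in 20 groups of independent, normally distributed values. Here the same sets recur over the groups and most flags fell on scarce members, so that the 10 cannot be set against this rate.

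EC set 13, one of the sets with few endothelial markers, stood apart for Acss1 in each group, at 2.35 FPM in Control (next 1.03), 3.57 FPM with HG + FFA (next 0.855), 3.05 FPM with AII + NA (next 0.526) and 1.38 FPM with ALL (next 0.585). KO VSMC set 5, the set that retained Egfr, stood apart for Acss1 with HG + FFA at 3.74 FPM (next 0.828) and for Acss3 in Control at 1.56 FPM (next 0.267). WT VSMC set 4 stood apart for Acss1 with AII + NA at 3.37 FPM (next 1.6). EC set 10 stood apart for Acsl6 with ALL at 2.28 FPM (next 0.704) and for Acss3 with AII + NA at 1.38 FPM (next 0.466).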

How the results depend on the processing

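Members changed numbered 0 in the 21 stressor comparisons under each alternative run. With no replicate block the number was 0 in each comparison where it was run. It was also 0 with the animal as the replicate block and with complete sets only. No member was called with the block, and fewer PPAR target genes were called without it. A number of 0 therefore could not show whether the pairing mattered. Between EC and WT VSMC in Control the count of 1 became 0 with no count filter (Acsl5 log2FC 0.62, edgeR FDR 0.092) and without EC set 18 (0.60, FDR 0.0694), became 2 without EC sets 9, 11 and 13, and ranged from 0 to 1 when each set was left out in turn. No result reversed. Of 2417 alternative log2FC of members, 2406 kept their direction where called and their side of the threshold, and 164 uncalled values changed sign. Of 704 alternative counts of list genes, 238 differed from the reported count by more than 1.5 times. Of 54 alternative levels, 14 moved by more than 1 SD. For Acss1 in WT VSMC with AII + NA, the edgeR FDR was 0.0148 with no count filter. The other settings gave 0.0525 to 1 over both tools. Leaving out set 4, with all its libraries, took the FDR to 1. Depth limits Acss1, Acss3 and Acsl6, which had a median of 2 to 7 counts a library in EC.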
